A study of Mus musculus with 12 samples.

Results

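The genes described here make, break down and sense prostaglandins. They are 8 of the 22584 genes counted in RNA from isolated mouse cardiomyocytes: the prostaglandin E2 receptor genes Ptger4 and Ptger3, the cyclooxygenase genes Ptgs1 and Ptgs2, the terminal synthase genes Ptges, Ptgis and Ptgds, and the prostaglandin dehydrogenase gene Hpgd. They were taken by symbol from the count table, and the set was chosen by measured values of these data: Ptger4 had stood out in the CKD model with saline against sham saline. Of the 8 genes, 7 had enough reads to be tested among 15004 genes, and Ptger3 did not.

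Polyadenylated RNA was sequenced from cardiomyocytes of wild-type C57BL6 mice in 4 groups of 3 libraries. The CKD JV001 group received AngII, a high salt diet and uninephrectomy (removal of 1 kidney) and was injected with JV001. The CKD saline group had the same combined model and was injected with saline. The sham JV001 group had a sham operation and JV001, and the sham saline group had a sham operation and saline. The labels call the combined model CKD. They give 12 weeks for every group but CKD saline, for which no duration is stated. What JV001 contains is not stated beyond its code name; the title of the series mentions telomere recapping by gene therapy. Nothing in the labels says that libraries of a group came from separate animals, so the p-values measure the spread between these libraries, which may be technical.

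Prostanoids are short-lived lipid signals made from arachidonic acid, which phospholipases release from membranes. The cyclooxygenases turn it into prostaglandin H2, and terminal synthases turn that into prostaglandin E2, prostacyclin, prostaglandin D2 or thromboxane. Each product acts on G protein-coupled receptors on nearby cells: EP4, the product of Ptger4, raises cyclic AMP, whereas EP3, the product of Ptger3, mainly lowers it. Transporters and dehydrogenases then end the signal. In the heart these lipids act on vascular tone, inflammation, fibrosis and myocyte growth, and many of the enzymes are made by endothelial cells, fibroblasts and white blood cells as well as by myocytes.

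The stretches just upstream of 4 of the genes are shown because these genes stand at different steps of the pathway (receptor, cyclooxygenases, breakdown) and are set side by side in the results, while their promoters differ in composition. Each run holds the 250 bases before the annotated start, read in the direction of transcription, from RefSeq on GRCm38.p6. Capitals mark matches, on either strand, to the motifs listed after the sequences. Ptger4 lies at chr15:5244188-5244437 on the minus strand, and the other 3 lie on the plus strand: Ptgs1 at chr2:36230176-36230425, Ptgs2 at chr1:150099781-150100030 and Hpgd at chr8:56294302-56294551. The study's reads were aligned to another build, GRCm39, so these coordinates are not those of the counts.
Ptger4: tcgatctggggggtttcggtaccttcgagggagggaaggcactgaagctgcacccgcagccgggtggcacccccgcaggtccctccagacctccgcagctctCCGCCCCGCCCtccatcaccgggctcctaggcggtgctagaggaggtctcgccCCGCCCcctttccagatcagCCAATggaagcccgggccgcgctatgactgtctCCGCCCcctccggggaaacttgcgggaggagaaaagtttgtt
Ptgs1: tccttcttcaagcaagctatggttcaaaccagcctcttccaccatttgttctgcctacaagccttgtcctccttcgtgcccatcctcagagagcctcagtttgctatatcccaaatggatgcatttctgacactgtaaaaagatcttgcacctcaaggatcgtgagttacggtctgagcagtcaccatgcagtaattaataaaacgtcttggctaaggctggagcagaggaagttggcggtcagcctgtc
Ptgs2: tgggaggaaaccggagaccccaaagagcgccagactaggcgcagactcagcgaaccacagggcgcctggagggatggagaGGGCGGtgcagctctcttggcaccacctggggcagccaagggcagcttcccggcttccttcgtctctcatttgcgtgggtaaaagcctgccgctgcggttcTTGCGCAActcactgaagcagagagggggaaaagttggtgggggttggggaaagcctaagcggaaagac
Hpgd: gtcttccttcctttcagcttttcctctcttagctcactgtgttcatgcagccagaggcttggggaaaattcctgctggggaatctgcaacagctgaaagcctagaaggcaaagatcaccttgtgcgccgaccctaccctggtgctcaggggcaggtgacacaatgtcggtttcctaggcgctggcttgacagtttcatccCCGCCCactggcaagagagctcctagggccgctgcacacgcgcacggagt
The Ptger4 stretch is rich in G and C (66.8%), and the Ptgs1 stretch is the poorest of the 4 (48.0%), against a median of 52.4% over all 32851 promoter windows of 300 bases. Ptger4 holds 4 matches to the GC box GGGCGG, all on the reverse strand, at 148, 143, 95 and 42 bases before the start, with the first pair sharing a base, and a CCAAT box at 75 bases. A GC box is in 35.7% of all windows and CCAAT in 37.4%. Ptgs2 holds a GC box at 170 bases and the C/EBP palindrome TTGCGCAA at 69 bases before the start, and that palindrome is in 0.183% of all windows. In the 50 bases after its start, not shown, Ptgs2 also has the cyclic AMP response half-site TGACG, which overlaps an E-box, CACGTG; these are in 20.8% and 7.15% of windows. Hpgd holds a GC box at 50 bases before the start, and TATAAA, in 13.6% of windows, after it. No match to any of the 8 motifs was found in the Ptgs1 window; the full site TGACGTCA (1.79%) and the AP-1 site TGANTCA (7.81%) are in none of the 4. A match here is a run of letters and not a measured binding site. A window was found for 7 of the 8 genes, and for Ptgis none was used.

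Library totals ran from 25233561 to 37000337 counts. Levels are given as CPM (the count relative to the TMM-scaled library total) for comparison between libraries and as the authors' FPKM, which also divides by gene length, for comparison between genes. The 12 ventricular cardiomyocyte markers, such as Myh6 and Tnnt2, were detected in each library. Library 3 of each CKD group stood apart: their summed ventricular markers were 28812 CPM in CKD JV001 and 57636 CPM in CKD saline. Libraries 1 and 2 had 63290 and 63697 CPM in CKD JV001, and 102869 and 103526 CPM in CKD saline. The sums were 92905 to 100418 CPM in sham JV001 and 85414 to 115484 CPM in sham saline. Every CKD JV001 library thus lay below every sham library. In CKD JV001 against sham JV001, 0 of the 12 markers had a positive log2 fold change (median -0.77), and edgeR called 0. The median sums of fibroblast, endothelial and macrophage markers were highest in CKD JV001, and CKD saline library 3 resembled that group more than its own in these sums. Its 10 fibroblast markers summed to 2485 CPM, against 633 and 658 CPM in CKD saline libraries 1 and 2, 2901 to 3832 CPM in CKD JV001, 625 to 1305 CPM in sham JV001 and 310 to 1187 CPM in sham saline. Neutrophil markers summed to 318 CPM in CKD JV001 library 3 and 71.4 CPM in CKD saline library 3, against at most 15.2 CPM in the other 10, and 7 of the 9 were at 0 in a sham JV001 library. Tests of the members below are given with these libraries and, where a call, a direction or a value depends on them, without them.

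Per gene length, Ptgds was the most abundant of the 8 messages in every group, with a mean of 311 ± 164 FPKM in CKD JV001, 370 ± 118 FPKM in CKD saline, 186 ± 35.7 FPKM in sham JV001 and 229 ± 42.6 FPKM in sham saline (SD, n = 3). Ptgis came next in each group, at 15.2 ± 2.64, 5.31 ± 4.19, 3.82 ± 1.75 and 3.33 ± 1.54 FPKM in the same order. The order below these 2 genes differed between groups. Ptger4 took the next place in both CKD groups, with 6.37 ± 0.322 FPKM in CKD JV001 and 5.15 ± 2.92 FPKM in CKD saline. In CKD JV001 its range lay apart from that of Ptgis, and in CKD saline the ranges overlapped. In the sham groups Ptgs1 came before Ptger4, whose mean was 1.48 ± 0.394 FPKM in sham JV001 and 1.01 ± 0.218 FPKM in sham saline, with overlapping ranges. The means of Ptgs1, Ptgs2 and Hpgd lay between 0.625 and 4.46 FPKM and mostly overlapped their neighbours in the order, Ptges was below 0.5 FPKM on average in each group, and Ptger3 was last.

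**Figure D1:**
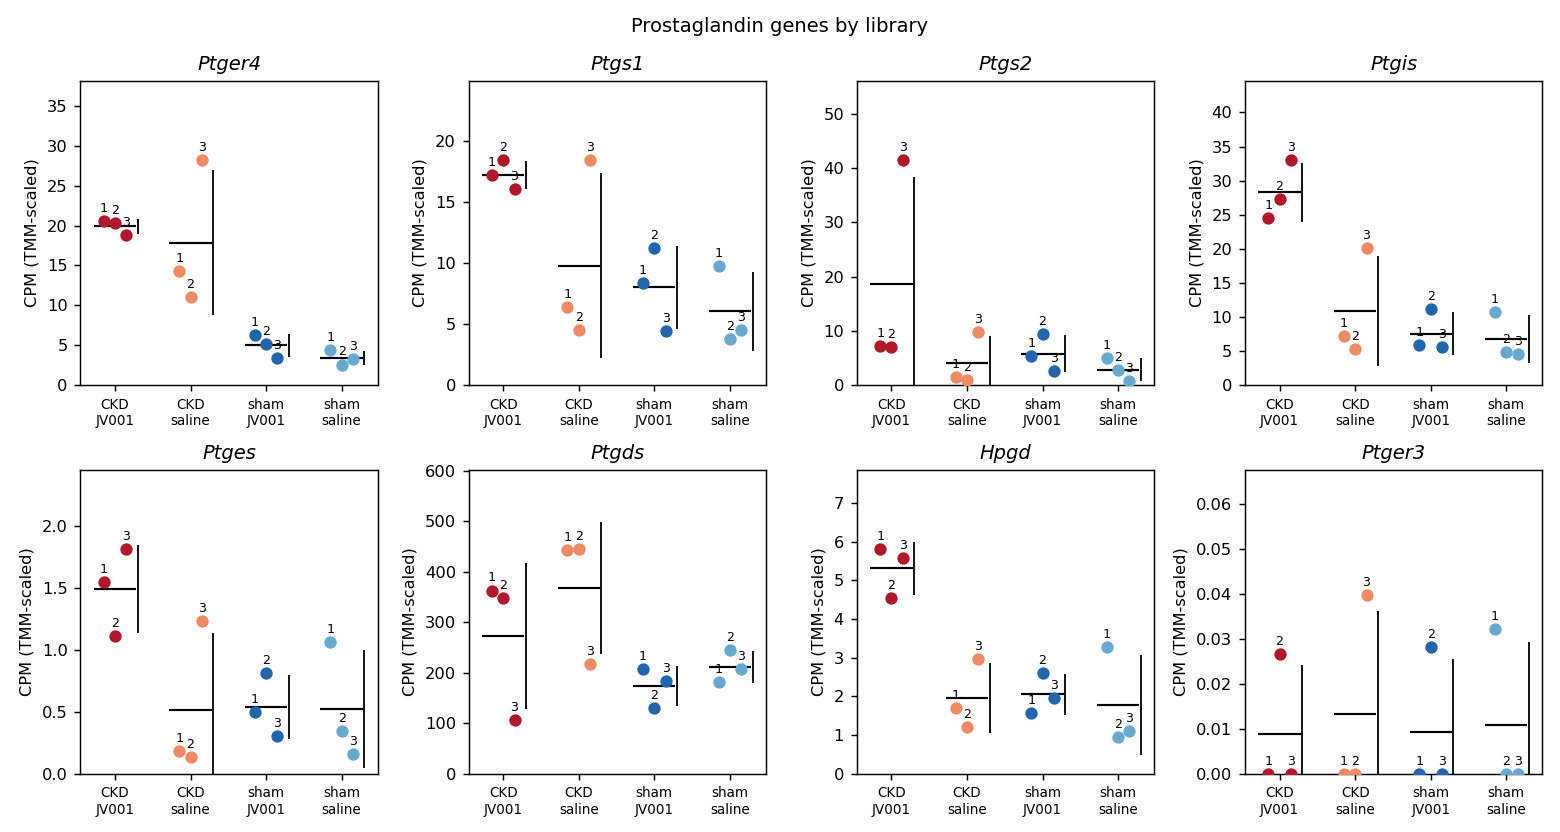
CPM of each of the 8 genes in the 3 libraries of each group; points are libraries, labelled by number, and bars give the mean and SD (cut at 0). All 6 CKD libraries lie above all 6 sham libraries for Ptger4, while CKD JV001 library 3 is the highest for Ptgs2 (41.6 CPM) and the lowest for Ptgds (106 CPM).

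Ptger4 encodes EP4, a receptor for prostaglandin E2. Its level was 20.5, 20.4 and 18.8 CPM in CKD JV001 libraries 1, 2 and 3, and 6.31, 5.16 and 3.42 CPM in sham JV001. Those 2 groups did not overlap, and the CKD JV001 libraries differed little among themselves (SD 0.930 CPM). The level was 14.3, 11.1 and 28.2 CPM in CKD saline and 4.34, 2.57 and 3.26 CPM in sham saline. These groups did not overlap either, and CKD saline library 3 was the highest of all 12. Reads behind these values numbered 642 to 768 per library in CKD JV001, 335 to 711 in CKD saline, 113 to 204 in sham JV001 and 97 to 135 in sham saline.

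The contrast of CKD saline with sham saline chose this gene, so its size is given as a description: a log2 fold change of 2.40, or 5.27-fold, and 1.93 without CKD saline library 3. The contrast of CKD JV001 with sham JV001 played no part in the choice. There Ptger4 averaged 19.9 ± 0.930 CPM in CKD JV001 and 4.96 ± 1.45 CPM in sham JV001, a log2 fold change of 2.00 (SE 0.35), or 4.01-fold. By edgeR's quasi-likelihood test with Benjamini-Hochberg adjustment over 15004 genes this did not pass the threshold of 0.05 (adjusted p = 0.0647). The call depended on the fit: the adjusted p was 0.0103 without CKD saline library 3, 0.00548 without library 3 of both CKD groups, 0.0333 with edgeR on these 2 groups alone, 1.44e-05 with DESeq2 and 0.0472 with limma on log2(FPKM + 1). Over all 25 settings the fold change lay between 1.58 and 2.21 on the log2 scale, with adjusted p from 1.44e-05 to 0.252.

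Ptger4 was also compared between JV001 and saline. In the CKD model the log2 fold change of CKD JV001 over CKD saline was 0.16, and 0.64 without CKD saline library 3. Since the gene was chosen for its level in CKD saline, no test is given and nothing is read from the size of this difference. In sham mice the log2 fold change of sham JV001 over sham saline was 0.55 (SE 0.35), with overlapping libraries and adjusted p = 0.9997 by edgeR. With all libraries, the difference in sham mice was smaller than 2 SE.

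Markers of other cells moved with Ptger4 in some libraries and not in others. CKD saline libraries 1 and 2 had fibroblast (633 and 658 CPM), endothelial (908 and 866 CPM) and macrophage (106 and 104 CPM) sums inside the ranges of the sham saline libraries. Their Ptger4 level was 14.3 and 11.1 CPM, above the highest sham library. These libraries are part of the contrast that chose Ptger4, so nothing is read from that height. Per 1000 CPM of fibroblast markers, Ptger4 stood at 22.6, 16.8 and 11.4 CPM in CKD saline. In sham saline it stood at 3.65, 3.19 and 10.5 CPM, so the groups did not overlap. Relative to the endothelial sum they did not overlap either (9.37 to 15.7 against 2.77 to 5.76). Relative to the macrophage sum they overlapped (53.6 to 135 against 22.5 to 82.8). In CKD JV001 the fibroblast ratio was 7.07, 6.96 and 4.92, inside the range of the sham JV001 values of 7.19, 3.95 and 5.48. Relative to the endothelial sum, the CKD JV001 values (5.96 to 8.58) lay above those of sham JV001 (3.07 to 4.79), and relative to the macrophage sum they overlapped (18.5 to 37.8 against 18.6 to 45.1). The ratios were computed after the levels were seen, and in bulk RNA fewer cells of a type and less RNA per cell cannot be told apart. What the other cells contribute to the Ptger4 level was not tested.

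**Figure D2:**
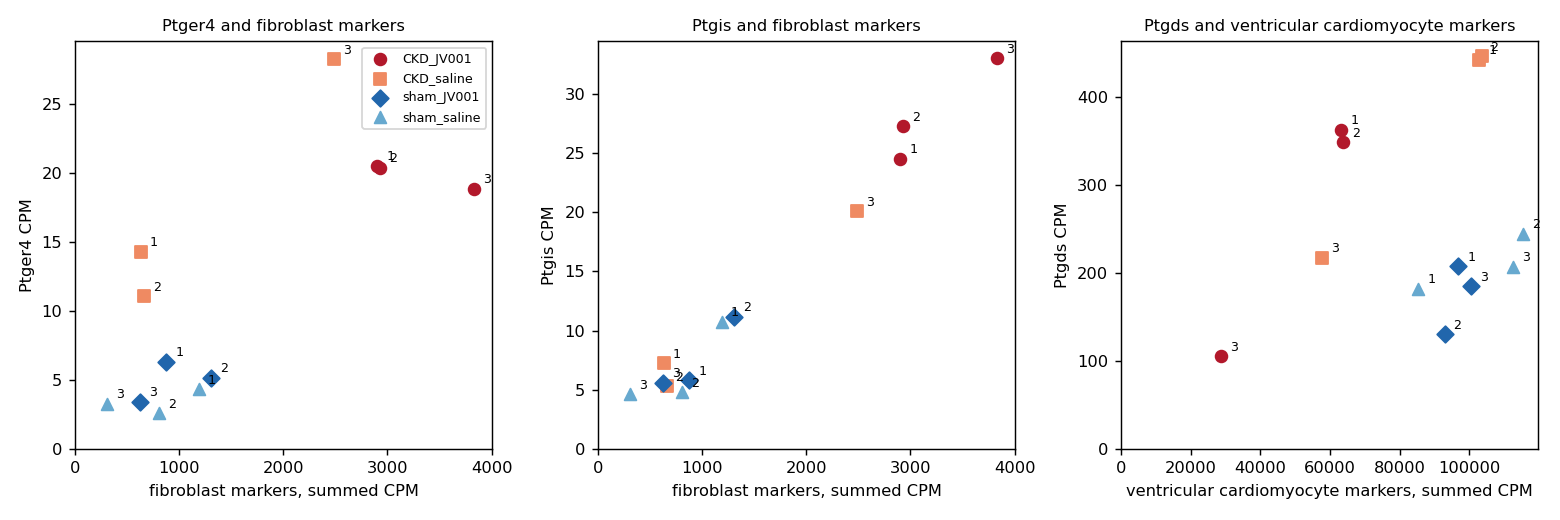
CPM of Ptger4 and Ptgis against the summed CPM of 10 fibroblast markers, and of Ptgds against the summed CPM of 12 ventricular markers; each point is a library, coloured by group and labelled by number. CKD saline libraries 1 and 2 have 14.3 and 11.1 CPM of Ptger4 at fibroblast sums of 633 and 658 CPM, where sham libraries have at most 6.31 CPM of Ptger4. These libraries are part of the contrast that chose Ptger4.

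Overlapping genes could add reads to Ptger4, because the strand setting of the counting is not given in the sources used here. In GENCODE M21, 82 exon bases of Ptger4 overlap Ttc33 on the other strand. Ttc33 was at 10.7 to 17.3 CPM in CKD JV001, 13.3 to 18.3 CPM in CKD saline, 16.7 to 19.7 CPM in sham JV001 and 15.6 to 20.1 CPM in sham saline, and the part of its reads in the Ptger4 count was not tested. A further 1015 exon bases overlap Gm15937, for which no count was used.

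Ptger3 was at the edge of detection. A single read was counted in CKD JV001 library 2, CKD saline library 3, sham JV001 library 2 and sham saline library 1, and none in the other 8 libraries. A count of 0 allows up to 3 reads, which is 0.0777 to 0.119 CPM at these depths (counting error only), so no difference between groups was detectable.

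The shares of the prostanoid receptor messages are given as a description. Among 8 receptor genes, Ptger4 held 57.5 to 61.8% of the summed FPKM in CKD JV001 and 64.2 to 72.4% in CKD saline, against 34.4 to 41.2% in sham JV001 and 23.8 to 46.2% in sham saline. Ptgfr, the receptor of prostaglandin F2α, held 4.21 to 7.95% in CKD JV001 and 0.966 to 7.28% in CKD saline, against 17.0 to 32.8% in sham JV001 and 17.6 to 38.6% in sham saline. Both shares separated all CKD from all sham libraries. The Ptger4 share rests on the gene that was chosen, and the Ptgfr share has that gene in its denominator, so nothing is read from either and no test is given. In level, Ptgfr was at 1.93, 3.74 and 1.88 CPM in CKD JV001 and 6.18, 5.52 and 2.24 CPM in sham JV001, which overlap (log2 fold change -0.88, SE 0.68, edgeR adjusted p = 0.390). Ptgir, the prostacyclin receptor, was at 7.63, 6.18 and 7.81 CPM in CKD JV001 and 0.835, 0.953 and 2.39 CPM in sham JV001. These did not overlap (log2 fold change 2.37, SE 0.79, edgeR adjusted p = 0.116), and the CKD saline values of 2.33, 0.561 and 9.53 CPM spanned both.

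**Figure D3:**
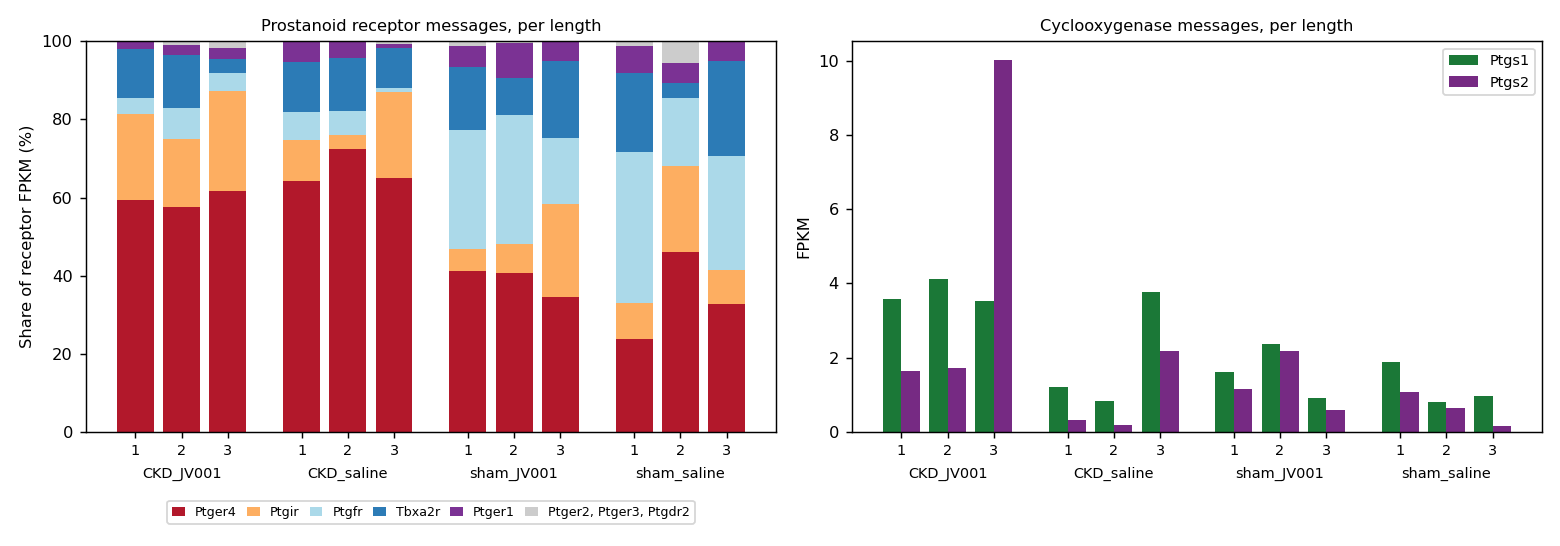
Left, the share of summed receptor FPKM held by each prostanoid receptor gene in each library; right, FPKM of Ptgs1 and Ptgs2. Ptger4 holds at least 57.5% in each CKD library and at most 46.2% in each sham library, and CKD JV001 library 3 is the library in which Ptgs2 exceeds Ptgs1. The Ptger4 share rests on the gene that was chosen, so nothing is read from it.

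The cyclooxygenases commit arachidonic acid to the pathway; Ptgs1 is broadly expressed and Ptgs2 is induced by inflammatory and growth signals. Ptgs1 was at 17.2, 18.4 and 16.1 CPM in CKD JV001 and at 8.38, 11.2 and 4.45 CPM in sham JV001. The groups did not overlap, yet the log2 fold change of 1.10 (SE 0.53, or 2.15-fold) did not pass edgeR's test (adjusted p = 0.195, and 0.0783 without CKD saline library 3). In CKD saline, libraries 1 and 2 had 6.37 and 4.52 CPM, inside the sham saline values of 9.77, 3.79 and 4.53 CPM, while library 3 had 18.5 CPM. The log2 fold change of CKD saline over sham saline was 0.70 with that library and -0.12 without it. Of its exons, 148 bases overlap Gm43621 on the other strand.

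Ptgs2 was driven by a single library in CKD JV001: 7.19, 6.95 and 41.6 CPM in libraries 1, 2 and 3, against 5.38, 9.34 and 2.64 CPM in sham JV001. The groups overlapped, and the log2 fold change of 1.68 (SE 1.00, edgeR adjusted p = 0.278) became 0.29 without CKD JV001 library 3. Ptgs2 was at 1.55, 0.858 and 9.73 CPM in CKD saline and 5.05, 2.84 and 0.700 CPM in sham saline, so library 3 was again the highest of its group. Without it the log2 fold change of CKD saline over sham saline was -1.21, against 0.50 with it. The ratio of Ptgs2 to Ptgs1 FPKM was 2.84 in CKD JV001 library 3 and below 1 in each of the other 11 libraries. Both library 3 values stand beside the highest neutrophil marker sums, and the part of those cells in the Ptgs2 level was not tested.

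Ptges makes prostaglandin E2 and was near the lower limit of the test. It had 1.55, 1.11 and 1.82 CPM in CKD JV001 and 0.495, 0.813 and 0.303 CPM in sham JV001, without overlap (log2 fold change 1.47, SE 0.87, edgeR adjusted p = 0.276). Without library 3 of both CKD groups the fold change was 1.29. CKD saline had 0.185, 0.132 and 1.23 CPM and sham saline 1.06, 0.345 and 0.155 CPM. Their log2 fold change was -0.01, and -1.65 without CKD saline library 3. Per 1000 CPM of fibroblast markers, Ptges overlapped between CKD JV001 (0.381 to 0.535 CPM) and sham JV001 (0.485 to 0.623 CPM). The endothelial ratio overlapped too (0.448 to 0.649 against 0.272 to 0.620). The macrophage ratio was lower in CKD JV001 without overlap (1.79 to 2.86 against 2.93 to 3.61).

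Ptgis, prostacyclin synthase, showed the second-largest contrast of CKD JV001 with sham JV001 among the tested members. It was at 24.5, 27.3 and 33.0 CPM in CKD JV001 and 5.81, 11.2 and 5.60 CPM in sham JV001. The groups were far apart, and the log2 fold change of 1.91 (SE 0.51) had an adjusted p of 0.0940 by edgeR. It passed with DESeq2 (0.00554), with edgeR on these 2 groups alone (0.0340), without CKD saline library 3 (0.0237) and without library 3 of both CKD groups (0.0227). CKD saline held 7.26, 5.31 and 20.1 CPM and sham saline 10.8, 4.77 and 4.61 CPM; the log2 fold change was 0.70, and -0.06 without CKD saline library 3. Per 1000 CPM of fibroblast markers, Ptgis stood at 8.46 to 9.32 CPM in CKD JV001 and 6.62 to 8.97 CPM in sham JV001, which overlap. Relative to the endothelial sum the CKD JV001 values (10.3 to 10.97) lay above those of sham JV001 (4.42 to 8.54), and relative to the macrophage sum they overlapped (32.5 to 50.5 against 40.3 to 66.7). Its exons share 156 bases with 1110018N20Rik on the other strand, which was at or below 8.04 CPM in every library.

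Ptgds makes prostaglandin D2 and, as a secreted lipocalin, carries small lipophilic molecules. Among the member synthases it alone was lowest in CKD JV001 library 3, the library with the lowest ventricular marker sum; of the further synthases, Ptges2, Prxl2b, Akr1b3 and Cbr1 also had their lowest level there. It was at 363, 349 and 106 CPM in CKD JV001 and 208, 130 and 185 CPM in sham JV001 (log2 fold change 0.65, SE 0.42, edgeR adjusted p = 0.312). Without library 3 of both CKD groups the fold change was 1.02 with adjusted p = 0.0116. CKD saline had 442, 446 and 217 CPM and sham saline 182, 245 and 207 CPM, a log2 fold change of 0.80, and 1.09 without library 3. Per 1000 CPM of ventricular markers, Ptgds stood at 5.73, 5.47 and 3.66 CPM in CKD JV001 and 2.14, 1.40 and 1.84 CPM in sham JV001. The same ratio was 4.30, 4.31 and 3.77 in CKD saline and 2.13, 2.12 and 1.84 in sham saline. On this ratio, computed after the levels were seen, all 6 CKD libraries lay above all 6 sham libraries, and no test is given. This was not particular to Ptgds. Ptger4, the chosen gene, split the same way, at 0.107 or more in CKD libraries and at most 0.0651 in sham libraries. Every tested member was apart and higher on this ratio in CKD JV001 against sham JV001. The ventricular sums that it divides by were lower in CKD JV001 (28812 to 63697 CPM against 92905 to 100418 CPM). Relative to the other sums Ptgds overlapped and ran lower in CKD JV001: 27.5 to 125 against 99.9 to 295 in sham JV001 for fibroblast, 33.4 to 152 against 99.4 to 166 for endothelial, and 104 to 668 against 470 to 2197 for macrophage markers.

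Hpgd encodes the dehydrogenase that inactivates prostaglandin E2. It was at 5.83, 4.54 and 5.58 CPM in CKD JV001 and 1.58, 2.61 and 1.97 CPM in sham JV001. The groups did not overlap, and the log2 fold change of 1.37 (SE 0.49) had an adjusted p of 0.125 by edgeR. DESeq2 (0.0394) and edgeR on these 2 groups alone (0.0436) called it, and edgeR without CKD saline library 3 (1.38, adjusted p = 0.0671) or without library 3 of both CKD groups (1.32, 0.106) did not. CKD saline held 1.70, 1.22 and 2.98 CPM and sham saline 3.28, 0.955 and 1.11 CPM, which overlap fully. The log2 fold change there was 0.15, and -0.25 without CKD saline library 3.

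Read across the members, CKD JV001 against sham JV001 gave 0 of 7 genes past the edgeR threshold, beside 0.0200% of all tested genes (3 genes). At an unadjusted p under 0.05 there were 3 (Ptger4, Ptgis and Hpgd) beside 27.5% of all genes. In 5 of 7 (Ptger4, Ptgs1, Ptges, Ptgis and Hpgd) all CKD JV001 libraries lay above all sham JV001 libraries, beside 22.9% of all genes. None lay below, beside 20.1%. These counts are of levels. Relative to the fibroblast marker sum none of these 5 was apart and higher, and Ptgs1 was apart and lower. Relative to the endothelial sum Ptger4 and Ptgis were apart and higher. Relative to the macrophage sum none was apart and higher, and Ptgs1 and Ptges were apart and lower. The median log2 fold change was 1.47 over the 7 and 0.02 over all genes tested. DESeq2 called 3 of the 7 beside 13.2% of all genes, edgeR on the groups compared 3 beside 5.51%, edgeR without CKD saline library 3 called 2 beside 10.4%, edgeR without library 3 of both CKD groups 3 beside 9.38%, and limma on log2(FPKM + 1) 1 beside 0.637%.

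**Figure D4:**
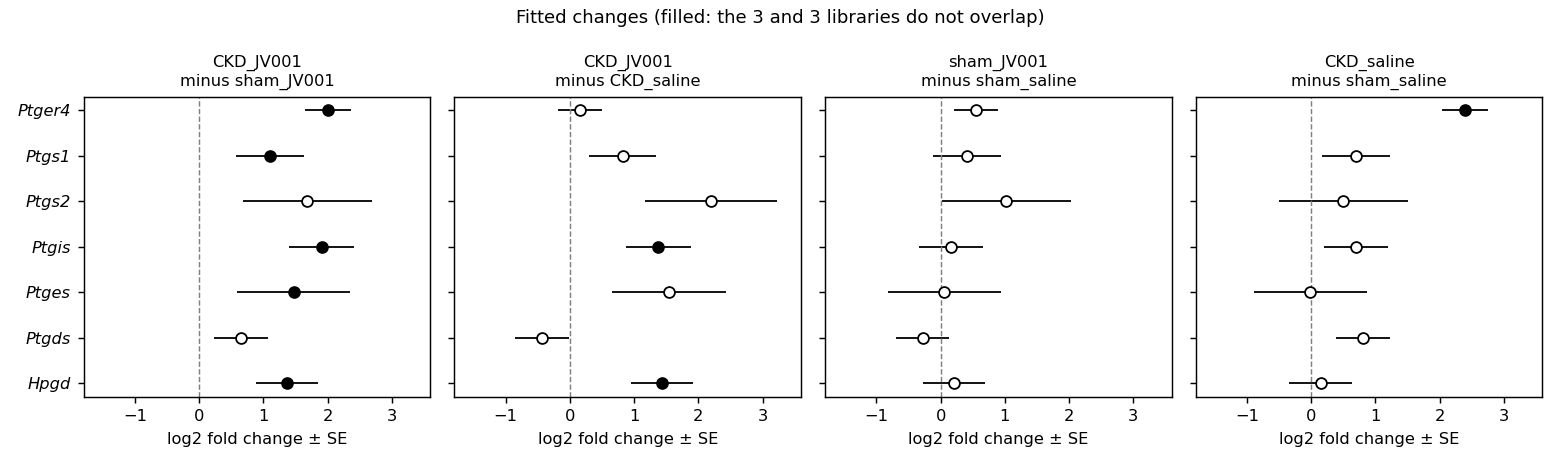
Log2 fold change (point) and standard error (bar) of the 7 tested genes in 4 contrasts from the edgeR fit; filled points are genes whose 3 libraries in each group do not overlap. In CKD JV001 minus sham JV001 all 7 lie above 0, from 0.65 (Ptgds) to 2.00 (Ptger4).

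CKD JV001 against CKD saline asks what JV001 goes with inside the model. The fitted difference of Ptgs2 was 2.20 on the log2 scale (SE 1.03), and 0.81 without CKD JV001 library 3. With all libraries, it was followed by Ptges (1.54, SE 0.88), Hpgd (1.43, SE 0.49), Ptgis (1.38, SE 0.50) and Ptgs1 (0.82, SE 0.52), while Ptgds was at -0.44 (SE 0.42). By edgeR 0 of these 6 genes passed, beside 0% of all genes, with adjusted p from 0.276 to 0.506; 2 (Hpgd and Ptgis) had an unadjusted p under 0.05, beside 18.0%. Hpgd and Ptgis were also the members whose libraries did not overlap, beside 8.22% of all genes in that direction and 6.04% in the other. The result turned on CKD saline library 3: without it 5 of the 6 passed (all but Ptgds) beside 21.3% of all genes, and without library 3 of both CKD groups 4 passed (Ptgs1, Ptgs2, Ptgis and Hpgd) beside 19.9%. Libraries with the same number in these 2 groups deviated together, but libraries with unlike numbers were not compared. Because library 3 stood apart in both groups, this cannot show a pairing of libraries 1 and 2. The pairing was read from the data, and the labels do not tie numbers to animals. A block on the number in edgeR on the 2 groups was added after seeing the data. With it, 3 passed beside 19.9%: Ptgs2 at 2.42 (adjusted p = 0.0113), Ptgis at 1.61 (0.0268) and Hpgd at 1.53 (0.0284). The block over all 12 libraries called 0 members, and so did DESeq2, which called 0.447% of all genes. Fibroblast, endothelial and macrophage marker sums of the CKD JV001 libraries all lay above those of CKD saline libraries 1 and 2 by more than 2-fold, and their part in these differences was not tested.

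JV001 in sham mice went with no detectable difference in these genes. The log2 fold changes of sham JV001 over sham saline were 0.55 for Ptger4, 0.41 for Ptgs1, 1.02 for Ptgs2 (SE 1.01), 0.06 for Ptges, 0.17 for Ptgis, -0.28 for Ptgds and 0.21 for Hpgd. By edgeR 0 of 7 passed, beside 0% of all genes, each with adjusted p = 0.9997, 0 had an unadjusted p under 0.05 (beside 2.84%), and DESeq2 called 0 (beside 0.0200%). No member's libraries were apart, beside 5.69% of genes higher and 6.71% lower. Whether the JV001 difference itself changed with the model was tested as an interaction. Its log2 values ran from -0.16 (Ptgds) to 1.48 (Ptges) in the 6 genes tested, with 0 called by edgeR (adjusted p 0.840 to 0.949) or DESeq2 (beside 0.0133% of all genes) and 0 at an unadjusted p under 0.05, beside 3.78% of all genes. With SEs of 0.59 to 1.41, a 2-fold difference in response, which is 1 on the log2 scale, lies within 2 SE of 0 for each of these genes. In the description of CKD saline against sham saline, Ptger4 was the 1 member of 7 whose groups did not overlap, beside 4.12% of all genes in that direction and 6.44% in the other; that contrast chose it and nothing is read from the count.

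Around the members, 51 other genes of the prostanoid and arachidonate pathway were found, of which 41 were tested. EdgeR called 0 of the 41 in each contrast; in CKD JV001 against sham JV001 14 had an unadjusted p under 0.05, 10 of them higher and 4 lower, beside 27.5% of all genes, and the median log2 fold change was 0.50, against 0.02 over all genes. DESeq2 called 9, beside 13.2% of all genes. EdgeR without CKD saline library 3 called 8 of 42, beside 10.4%, among them Pla2g4a, Pla2g15, Ptgir, Slco2a1, Ephx1 and Cyp2j9, whose values here are those of the fit over all libraries. Of the 41, 18 were apart and higher and 7 apart and lower, beside 22.9% and 20.1% of all genes; the counts per list below are read against the same shares. The phospholipase Pla2g4a, which releases arachidonic acid from membranes, was at 5.73, 5.20 and 10.4 CPM in CKD JV001 and 0.928, 1.65 and 1.18 CPM in sham JV001. Its log2 fold change was 2.50 (SE 0.57, edgeR adjusted p = 0.0883), larger than that of any member, and its CKD saline values of 1.15, 1.81 and 3.10 CPM lay below all CKD JV001 values. The lysosomal phospholipase Pla2g15 differed by 0.88 (adjusted p = 0.0883). Of the 9 phospholipases tested, 5 were apart and higher and 2 apart and lower, the second count being near its share over all genes.

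Among 9 further synthases, Hpgds, the haematopoietic prostaglandin D synthase, was at 2.60, 2.10 and 2.73 CPM in CKD JV001 and 0.773, 0.505 and 0.0606 CPM in sham JV001. CKD saline library 3 (2.50 CPM) was like the CKD JV001 libraries, and libraries 1 and 2 (0.259 and 0.165 CPM) were not. Tbxas1, thromboxane synthase, was at 2.63, 2.41 and 3.37 CPM in CKD JV001 and 0.618, 1.93 and 0.212 CPM in sham JV001. Neither passed edgeR's test (adjusted p = 0.163 for Hpgds and 0.194 for Tbxas1). Of 7 genes for transport and breakdown beyond Hpgd, 4 were apart and higher and 3 apart and lower in CKD JV001 against sham JV001. Slco2a1, the prostaglandin uptake transporter, was at 12.1, 12.3 and 15.02 CPM in CKD JV001 and 2.16, 4.82 and 3.18 CPM in sham JV001 (log2 fold change 1.95, SE 0.48, edgeR adjusted p = 0.0923). Ptgr2, a prostaglandin reductase, went the other way (-0.78, SE 0.32, adjusted p = 0.153). Of 12 genes of the lipoxygenase, leukotriene and epoxide branches, 5 were apart and higher and 1 apart and lower. Ephx1, an epoxide hydrolase, was at 96.6, 94.0 and 99.0 CPM in CKD JV001 and 36.2, 41.8 and 27.7 CPM in sham JV001 (1.45, SE 0.36, adjusted p = 0.0937), and Cyp2j9, a P450 of the epoxygenase family, differed by 2.11 (SE 0.60, adjusted p = 0.1003).

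The genes whose pattern over the 12 libraries was most like that of each member were found by the mean absolute difference of centred log2 CPM. For Ptger4 they were Apold1 (0.34), Hlx (0.39), Rasa4 (0.41), Camkk1 (0.43) and Rem1 (0.43). The nearest gene to Ptger4 was thus less like it than Nbl1 was to Ptgs1 (0.096) or Vwf, the von Willebrand factor gene of endothelial cells, to Ptgis (0.13). Apold1 had 91.6 to 133 CPM in CKD JV001 and 88.7 to 170 CPM in CKD saline, against 25.3 to 79.4 CPM in sham JV001 and 23.8 to 38.6 CPM in sham saline. Like Ptger4 it separated all CKD from all sham libraries, which its choice by likeness to Ptger4 favours, so nothing is read from it. Ptgs2 was nearest to Plek (0.31), Cxcl2 (0.32) and Mmp19 (0.34); Plek had 7.85 to 64.5 CPM in CKD JV001, a spread much like that of Ptgs2. Ptges was nearest to Myof, Col1a1 and Col6a2, the last 2 collagen genes; Col1a1 is also in the fibroblast list. Ptgds was nearest to Bambi, Nudt18 and Ankrd1, and Hpgd to Ctdspl, Crip1 and Lratd2.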

How the data were processed

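Polyadenylated RNA of isolated mouse cardiomyocytes was measured in 12 libraries, 4 groups of 3. The submitters' processing notes name fastp, HISAT2, HTSeq and GRCm39. Versions, annotation, counting mode and strand setting are not given in those sources. The authors deposited counts as whole, unnormalised reads per gene symbol. The authors' FPKM values derive from these counts: with 50 or more reads in all libraries, 100% of 10249 genes gave 1 whole-number length (tolerance 0.01). Columns were matched to samples by group initials and number, with C read as CKD saline.

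Counts were tested with edgeR 4.0.16 (R 4.3.3): TMM factors, filterByExpr by group (minimum count 10), 1 fit of 4 group means over 12 libraries, the quasi-likelihood F test, and Benjamini-Hochberg adjustment over 15004 genes, threshold 0.05. The SE given with an edgeR log2 fold change is its absolute value divided by the square root of F. A test of the code on simulated data with known changes preceded use. Alternatives were DESeq2 1.42.0, limma 3.58.1 on log2(FPKM + 1) or log2(FPKM + 0.1), size factors by RLE, leaving the filter out or raising it (mean of 10 reads, 1 CPM in at least 3 libraries), a robust spread, the number as a block, fits of the compared pair alone, omission of single libraries, of library 3 in both CKD groups, or of haemoglobin and mitochondrial genes. FPKM carries no counting error of its own, and the pseudocount makes fold changes of low genes smaller. The block on 2 groups and the sum of CKD saline libraries 1 and 2 were added after seeing the data.

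The members, lists and settings were chosen with earlier results of these data known. All 8 members are named; other pathway genes are named if called, or else up to 2 per list by p in CKD JV001 against sham JV001; pattern neighbours are the 5 (Ptger4) or 3 genes of smallest distance among genes of at least 1 CPM. Same-numbered libraries of CKD JV001 and CKD saline deviated together (correlations 0.296, 0.289 and 0.492 over genes), and the number was treated as pairing these 2 groups. This comes from the data, as the labels do not tie numbers to animals. Unlike numbers within these 2 groups were not compared. Because library 3 stood apart in both, the correlations cannot show a pairing of libraries 1 and 2. In the other pairs of groups the correlations ran from -0.385 to 0.216. No 2 libraries agreed within sampling noise (chi-square per degree of freedom at least 8.31, CKD saline 1 and 2). Motifs were searched on both strands of windows from 250 bases before to 50 after the start.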

Additional observations from a re-analysis of the deposited data

How the results depend on the processing

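The fold changes of CKD JV001 over sham JV001 kept their sign for all 7 tested members under 25 settings, but their calls did not hold to one side of the threshold. EdgeR called 0 of 7; DESeq2 called 3, edgeR on only the groups compared 3, edgeR without library 3 of both CKD groups 3, limma on log2(FPKM + 1) 1, and leaving out each library in turn 0 to 2. For the other pathway genes these counts were 9, 7, 6, 2 and 0 to 8. In CKD JV001 against CKD saline, leaving out each library gave 0 to 5 members and 0 to 13 pathway genes, leaving out library 3 of both CKD groups 4 and 14, and DESeq2 0 and 1. The replicate block on these 2 groups gave 3 members and 14 pathway genes; the replicate block over all libraries called 0 members in any contrast and changed no other call. The cause of these shifts was not tested.

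Signs turned in contrasts with no call, mostly when a library was left out. Without each library in turn, sham JV001 over sham saline ran from -0.36 to 1.09 for Ptges, from -0.23 to 0.68 for Ptgis and from -0.076 to 0.98 for Hpgd, and the interaction from -0.11 to 1.23 for Ptgs1, from -0.21 to 2.92 for Ptgs2 and from -0.45 to 0.23 for Ptgds. For sham JV001 over sham saline, without sham saline library 2, 3 and sham JV001 library 2 in turn, Ptges went to -0.14, -0.36 and -0.36 and Ptgis to -0.0097, -0.022 and -0.23, and Hpgd to -0.076 and -0.019 without sham saline library 2 and 3. In the interaction, Ptgs1 went to -0.11 without sham saline library 1, Ptgs2 to -0.21 without CKD JV001 library 3, and Ptgds to 0.010, 0.016 and 0.23 without CKD saline library 1, 2 and CKD JV001 library 3, and to 0.013 with CKD saline libraries 1 and 2 summed.

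Depth limits Ptger3, with at most 1 read per library, and Ptges, the least abundant tested member.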

Other observations

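Relative to the macrophage marker sum, Ptgs2 was not high in every CKD JV001 library. Per 1000 CPM of macrophage markers it stood at 13.2, 12.9 and 40.9 CPM in CKD JV001 libraries 1, 2 and 3, and at 38.5, 33.7 and 31.4 CPM in sham JV001. In CKD saline the ratio was 14.7, 8.23 and 18.5, and in sham saline 26.3, 24.8 and 17.8. Relative to the fibroblast sum Ptgs2 stood at 2.48, 2.38 and 10.8 CPM in CKD JV001 and 4.22 to 7.16 CPM in sham JV001, and relative to the endothelial sum at 3.01, 2.80 and 13.2 CPM in CKD JV001 and 2.37 to 7.12 CPM in sham JV001. Library 3 of CKD JV001 is the only CKD library above every sham saline library on the macrophage ratio; these ratios were computed after the levels were seen and not tested.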
